A study of Mus musculus with 27 samples.

Results

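The genes described here are 40 genes of cell division, 20 of DNA replication and 20 of mitosis, followed in bone marrow, liver and brain of mice that carried 0, 1 or 2 copies of a disrupted Mysm1 allele. They were listed by name for their role in the cell cycle, with earlier results of these data known. Measured signal entered the rule through the detection limit and the choice of probe given below. Of the 40 genes, 38 had a probe with that gene symbol among the 45281 probes of the array, and Ccnb1 and Mki67 had none. A gene was followed in a tissue when a probe lay above background (detection p below 0.05) on at least 3 of that tissue's 9 arrays, and the brightest such probe stood for the gene. This left 29 members in bone marrow (17 replication, 12 mitotic), 21 in liver (14 and 7) and 20 in brain (14 and 6).

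A cell that commits to division first loads the Mcm2 to Mcm7 helicase onto replication origins with the help of Cdc6 and Cdt1, then fires those origins, copies its DNA and builds a spindle that parts the chromosomes. Transcripts of the replication genes rise as cells enter S phase under E2F transcription factors, and transcripts of the mitotic genes rise later, towards mitosis. Bone marrow holds many dividing blood cell precursors, whereas most hepatocytes of adult liver and most neurons do not divide.

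Mysm1 is a deubiquitinase of histone H2A, and the study asked what its loss does to transcript levels across tissues. All mice had a C57BL/6 background. The 3 genotypes were wild type, heterozygous (Mysm1+/tm1a) and homozygous for the same knockout-first allele, Mysm1tm1a(KOMP)WTSI, and the age and sex of the animals were not given in the sources used here. RNA of snap-frozen liver, bone marrow or brain was amplified, labelled with biotin and read on Illumina BeadChips, with 3 arrays in each of the 9 groups and 27 arrays in all. Each array was treated as 1 animal, because the design text speaks of comparisons between animals.

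Signal was lower and more variable in bone marrow than in liver or brain. Mean raw signal of the marrow arrays lay between 92.1 and 228.4 and the share of probes detected between 20.05% and 35.4%. The ranges were 281.9 to 361.0 and 32.7% to 36.2% in liver and 285.3 to 372.8 and 43.3% to 44.4% in brain. Within marrow, mean raw signal was 194.4, 228.4 and 136.2 in wild type and 106.1, 99.3 and 134.7 in heterozygotes. In homozygotes it was 102.02, 137.5 and 92.1. The share detected was 28.6% to 35.4% in wild type, 23.8% to 27.6% in heterozygotes and 23.4%, 31.03% and 20.05% in homozygotes. Correlations between arrays of 1 genotype were 0.802 to 0.918 for the marrow arrays labelled homozygous and 0.948 or higher in each other group. Mysm1 itself, as a normalised log2 level, was lower on all 3 homozygous arrays of liver (4.49 to 5.20, against 7.29 to 7.59 in wild type) and of brain (6.37 to 6.48, against 8.28 to 8.43). In bone marrow it read 6.18, 6.29 and 6.40 in wild type and 6.48, 4.88 and 6.95 on the arrays labelled homozygous. The arrays of replicates 1 and 3 thus lay above every wild-type array, and the difference was -0.18 ± 0.43 (standard error) with an adjusted p of 0.793 in limma. Replicate 2 also carried liver transcripts: the summed linear level of the 5 hepatocyte markers measured in marrow was 3946 on that array, 585 and 456 on the other homozygous arrays and 254.6 to 335.1 on the 6 others, where 15 further markers, Alb and Apoa1 among them, were detected on fewer than 3 marrow arrays. Of those 15, homozygous replicate 2 detected 11 and each other array at most 1. The counts and medians of the members in marrow, the counts between tissues and most lists of other genes are given with and without these arrays, and the group is called homozygous by its label. By the array numbers in the labels, the wild-type and heterozygous marrow samples shared a BeadChip and the homozygous samples sat on another, so homozygous marrow cannot be told apart from its BeadChip.

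Promoter sequences are shown for the 3 replication and the 3 mitotic members that had the smallest p in homozygous against wild-type marrow and an entry in RefSeq's table, because both classes are known to be driven through short promoter elements. Each runs 5′ to 3′ from 250 bases before to 50 bases after the annotated start, build GRCm38.p6. Capitals mark 3 kinds of element found on either strand: E2F-like letters (any of 4 forms, with TTCCCGC as the first, TTGGCGC as another, TTCGCGC as the third and TTGCCGC as the fourth), the cell cycle homology region or CHR (spelled TTTGAA or else spelled TTCGAA), and the CCAAT box (CCAAT). In Mcm7, which had a second annotated window, some capitals belong to more than 1 element because they overlap.
Cdc6 (chr11:98907901-98908200, plus strand): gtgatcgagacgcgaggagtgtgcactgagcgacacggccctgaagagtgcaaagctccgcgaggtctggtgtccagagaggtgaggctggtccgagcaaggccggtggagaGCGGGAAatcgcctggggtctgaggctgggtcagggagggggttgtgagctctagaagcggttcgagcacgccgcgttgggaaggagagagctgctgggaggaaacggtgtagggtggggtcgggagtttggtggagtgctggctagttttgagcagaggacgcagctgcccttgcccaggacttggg
Mcm7 (chr5:138171834-138172133, minus strand): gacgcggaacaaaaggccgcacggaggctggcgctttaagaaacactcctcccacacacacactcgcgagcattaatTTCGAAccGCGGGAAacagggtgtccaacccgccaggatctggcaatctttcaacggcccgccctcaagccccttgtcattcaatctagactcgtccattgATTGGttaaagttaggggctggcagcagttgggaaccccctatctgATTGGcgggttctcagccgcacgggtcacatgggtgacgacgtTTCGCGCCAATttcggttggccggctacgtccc
Cdt1 (chr8:122567765-122568064, plus strand): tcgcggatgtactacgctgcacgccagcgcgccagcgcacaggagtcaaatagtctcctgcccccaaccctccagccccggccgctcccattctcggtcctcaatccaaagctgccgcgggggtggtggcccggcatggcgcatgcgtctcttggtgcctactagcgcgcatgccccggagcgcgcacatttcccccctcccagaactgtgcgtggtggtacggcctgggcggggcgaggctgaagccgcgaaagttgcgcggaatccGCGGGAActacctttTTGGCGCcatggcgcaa
Bub1b (chr2:118597961-118598260, plus strand): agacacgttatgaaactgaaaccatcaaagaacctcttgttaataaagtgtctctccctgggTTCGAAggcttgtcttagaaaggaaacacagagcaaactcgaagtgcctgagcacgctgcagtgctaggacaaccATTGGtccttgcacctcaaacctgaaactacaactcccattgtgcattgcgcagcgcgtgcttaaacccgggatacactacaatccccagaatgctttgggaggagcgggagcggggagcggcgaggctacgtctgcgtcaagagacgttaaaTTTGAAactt
Kif11 (chr19:37376132-37376431, plus strand): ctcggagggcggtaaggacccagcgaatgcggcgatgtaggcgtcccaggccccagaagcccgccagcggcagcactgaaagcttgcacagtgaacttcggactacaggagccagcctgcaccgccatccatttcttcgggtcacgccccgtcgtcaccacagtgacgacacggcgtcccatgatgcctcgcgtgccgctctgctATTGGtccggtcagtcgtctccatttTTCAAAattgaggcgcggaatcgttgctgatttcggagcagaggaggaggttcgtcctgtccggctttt
Cdk1 (chr10:69352863-69353162, minus strand): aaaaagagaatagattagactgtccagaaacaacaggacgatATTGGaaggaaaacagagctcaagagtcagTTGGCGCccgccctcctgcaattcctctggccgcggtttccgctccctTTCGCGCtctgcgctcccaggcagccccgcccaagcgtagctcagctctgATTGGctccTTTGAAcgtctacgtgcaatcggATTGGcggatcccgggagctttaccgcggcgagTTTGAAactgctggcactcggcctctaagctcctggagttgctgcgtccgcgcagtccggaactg

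The windows of the replication genes Cdc6 and Cdt1 held E2F-like letters and none of the other elements, whereas those of the mitotic genes Bub1b and Kif11 held a CHR and a CCAAT box and no E2F-like letters. The Mcm7 and Cdk1 windows held all 3 kinds. In Kif11 the CCAAT box began 45 bases and the CHR 19 bases before the start, and in Cdk1 the pair nearest the start began 48 and 15 bases before it. Of the 40 members, 33 had a promoter entry, and a gene was counted when any of its windows held the element. E2F-like letters stood in 12 of 17 replication genes (70.6%) and 3 of 16 mitotic genes (18.8%), against 10.9% of all 27025 genes in the table. A CHR stood in 4 of 17 replication genes (23.5%) and 12 of 16 mitotic genes (75%), against 21.7% of all genes, and a CCAAT box in 70.6% and 87.5%, against 41.1%. All 12 mitotic genes with a CHR also had a CCAAT box, a pair found in 9.65% of all genes. E2F factors, the MuvB complexes and NF-Y are the proteins known to bind these elements. A match in letters is a description of the sequence, and binding was not measured here.

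In bone marrow of mice labelled homozygous, every one of the 29 members measured had a lower mean than in wild type, by 0.10 to 1.43 on the log2 scale, yet 1 of them, the origin-licensing factor Cdc6, fell past the test. The median difference was -0.59 over the members, -0.64 over the replication genes and -0.55 over the mitotic genes, against -0.12 over all 11507 features tested. In that comparison 59% of all features lay below 0. The test was limma's moderated test with Benjamini-Hochberg adjustment over all features and a threshold of 0.05, and it called 1.1% of all features. At an unadjusted p below 0.05, 21 of the 29 members were lower, against 14.7% of all features, and 24 members had 3 homozygous arrays all below the 3 wild-type arrays, against 19.6%. In whole tissue, fewer dividing cells and less RNA per cell cannot be told apart.

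**Figure D1:**
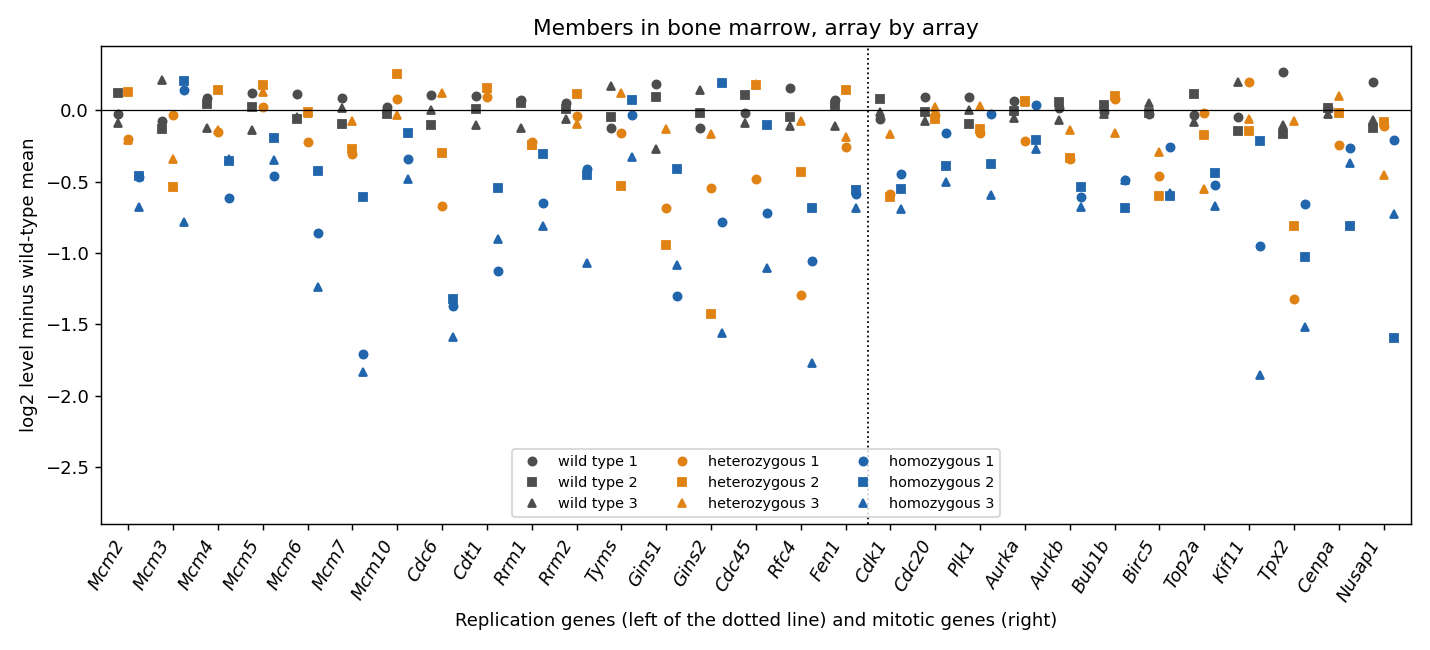
Log2 level of each of the 29 members on each of the 9 bone marrow arrays, minus the gene's wild-type mean, with replication genes left and mitotic genes right of the dotted line. Homozygous points (blue) lie below the wild-type points (grey) for 24 members, and Cdc6 shows the 3 homozygous arrays closest together in the lower part of the plot.

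Licensing genes held the 2 largest differences. Cdc6, which loads the helicase at origins, read 7.09, 6.88 and 6.98 on the wild-type arrays, 6.31, 6.68 and 7.11 on the heterozygous arrays and 5.61, 5.66 and 5.39 on the homozygous arrays. The 3 homozygous arrays lay close together and below all 6 others. Cdc6 fell by 1.43 ± 0.23 on the log2 scale, 2.69-fold, at an adjusted p of 0.0241. That call was lost when any of the 3 wild-type arrays, heterozygous replicate 2 or homozygous replicate 1 was left out (adjusted p 0.0521 to 0.135), while the difference stayed between -1.49 and -1.31 in those fits. It was also lost with the replicate number as a block (adjusted p = 0.0694) and with only the wild-type and homozygous arrays in the fit (adjusted p = 0.0531). Without homozygous replicate 2 it was -1.48, at an adjusted p of 0.00316.

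Mcm7, a helicase subunit, read 7.42, 7.24 and 7.35 in wild type, 7.03, 7.07 and 7.26 in heterozygotes and 5.63, 6.73 and 5.50 in homozygotes, a difference of -1.38 ± 0.30 (adjusted p = 0.0567). Its homozygous replicate 2 lay more than 1 unit above the others. A second Mcm7 probe, also detected on all 9 arrays, differed by 0.28 ± 0.22 in the opposite direction, so the value rests on the probe chosen. Cdt1, the partner of Cdc6 in loading, read 8.39, 8.29 and 8.19 in wild type, 8.38, 8.45 and 8.45 in heterozygotes and 7.16, 7.75 and 7.39 in homozygotes, a difference of -0.86 ± 0.21 (adjusted p = 0.0665). The helicase subunit Mcm6 differed by -0.84 ± 0.23, and its 2 other detected probes by -0.51 and -0.88. The remaining subunits differed less, by -0.54 in Mcm2, -0.44 in Mcm4, -0.33 in Mcm5 and -0.15 in Mcm3, and the initiation factor Mcm10 by -0.33. Of the 9 licensing and initiation genes measured, 8 had homozygous arrays that did not overlap the wild-type arrays, and Mcm3 did overlap. Orc1, a subunit of the origin recognition complex, was detected on at most 2 arrays and was not followed.

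Among the genes of the fork and of nucleotide supply, the 8 measured differences ran from -1.17 to -0.10 with a median of -0.65, and 0 passed the test. Rfc4, a subunit of the loader of the sliding clamp, read 7.09, 6.89 and 6.83 in wild type, 5.64, 6.50 and 6.86 in heterozygotes and 5.88, 6.25 and 5.17 in homozygotes. The homozygous values were spread over more than 1 unit but all lay below wild type, and the difference was -1.17 ± 0.35 (adjusted p = 0.0900). Gins1, part of the active helicase, differed by -0.93 ± 0.29, its partners Cdc45 and Gins2 by -0.64 ± 0.29 and -0.72 ± 0.43. The flap endonuclease Fen1, which trims Okazaki fragments, read 9.67, 9.63 and 9.48 in wild type and 9.01, 9.03 and 8.91 in homozygotes, a difference of -0.61 ± 0.19. Its groups were tight and well apart. The ribonucleotide reductase subunits Rrm1 and Rrm2, which make deoxynucleotides, differed by -0.59 ± 0.20 and -0.65 ± 0.22. Thymidylate synthase, Tyms, differed by -0.10 ± 0.23 with overlapping groups, and its 3 other detected probes lay at 0.07, 0.48 and -0.81. Pcna, the sliding clamp, was detected on at most 2 arrays and the primase subunit Prim1 on 0, so neither was followed.

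No mitotic gene passed the test in homozygous marrow, where 12 of 12 lay below 0 and 9 had an unadjusted p below 0.05. Cdk1, the kinase that starts mitosis, read 8.92, 9.06 and 8.97 in wild type, 8.40, 8.37 and 8.82 in heterozygotes and 8.54, 8.43 and 8.29 in homozygotes, a difference of -0.56 ± 0.20. Heterozygous and homozygous arrays overlapped for Cdk1, and both lay below wild type. Cdc20, an activator of the anaphase-promoting complex, differed by -0.35 ± 0.19, and its 3 other detected probes lay between -0.15 and 0.22. Ccna2, Ccnb2 and Ube2c had probes detected on 0 arrays and Cks2 on at most 2, so the cyclins of mitosis were not measured here.

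Aurkb, the kinase of the chromosomal passenger complex, read 7.35, 7.38 and 7.26 in wild type, 6.98 to 7.19 in heterozygotes and 6.72, 6.79 and 6.65 in homozygotes. The 3 genotypes did not overlap, and homozygotes differed from wild type by -0.61 ± 0.18 (adjusted p = 0.0900). Bub1b, a spindle checkpoint kinase, read 8.80, 8.85 and 8.79 in wild type, 8.89, 8.91 and 8.65 in heterozygotes and 8.32, 8.12 and 8.32 in homozygotes, a difference of -0.56 ± 0.18. Here the heterozygous arrays lay around the wild-type arrays. Birc5, or survivin, another passenger subunit, differed by -0.48 ± 0.19, and the mitotic kinases Plk1 and Aurka by -0.33 ± 0.21 and -0.15 ± 0.19 with overlapping groups. Bub1, the partner kinase of Bub1b, was detected on 0 arrays.

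The genes of chromosomes and spindle had a median difference of -0.84 over 5 members, all 5 without overlap between homozygous and wild-type arrays. Tpx2, which activates Aurka on the spindle, read 6.17, 5.73 and 5.79 in wild type, 4.57, 5.09 and 5.83 in heterozygotes and 5.24, 4.87 and 4.38 in homozygotes, a difference of -1.07 ± 0.33. It was detected on 2 of 3 homozygous and 2 of 3 heterozygous arrays, so its lowest values lay at background. Kif11, a spindle kinesin, differed by -1.01 ± 0.35, and its homozygous arrays read 5.31, 6.05 and 4.41. The reading of 4.41 was close to the lowest of Tpx2, 4.38, so the size of the Kif11 difference rests partly on a value near background. Nusap1, a spindle-associated protein, read 9.40, 8.01 and 8.88 in homozygotes against 9.80, 9.48 and 9.53 in wild type, a difference of -0.84 ± 0.32 in which replicate 2 was the lowest. Top2a, the topoisomerase that untangles sister chromosomes, differed by -0.55 ± 0.20, while its 2 other detected probes lay at 0.16 and -0.06. Cenpa, the histone of the centromere, differed by -0.48 ± 0.21. Kif20a was detected on 0 arrays.

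Where a gene had further detected probes, 16 of these 23 probes also lay below 0, with a median of -0.50 and a range from -1.05 to 0.48. Mcm7 was the gene whose probes lay furthest apart, and for 0 genes did both probes differ from 0 in opposite directions beyond 2 standard errors. Probe signal does not rank transcripts of different genes. Within marrow the brightest members were Cenpa at a mean log2 level of 11.08, Mcm5 at 10.11 and Mcm4 at 9.91, and the dimmest were Gins1 at 5.80, Gins2 at 5.69 and Tpx2 at 5.30.

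Replication and mitotic genes did not keep 1 order across the homozygous marrow arrays. Relative to the wild-type mean, the average replication gene lay at -0.73, -0.36 and -0.98 on homozygous replicates 1, 2 and 3, and the average mitotic gene at -0.38, -0.62 and -0.75. Replication genes were thus the lower class on replicates 1 and 3 and the mitotic genes on replicate 2, the array with liver transcripts. All 3 arrays lay below the 6 others for both classes. Replicate 3, the lowest, also had the lowest mean raw signal of the marrow arrays (92.1). Replicate 2 had a higher raw signal (137.5) than wild-type replicate 3 (136.2). Heterozygous replicate 2, at a raw signal of 99.3, lay at -0.20 for replication and -0.23 for mitotic genes. The part of array signal in these differences was not tested. The number of members below their wild-type mean was 27, 26 and 29 of 29 on homozygous replicates 1, 2 and 3. On those arrays all features lay below at 57.6%, 48.6% and 61.1%.

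**Figure D2:**
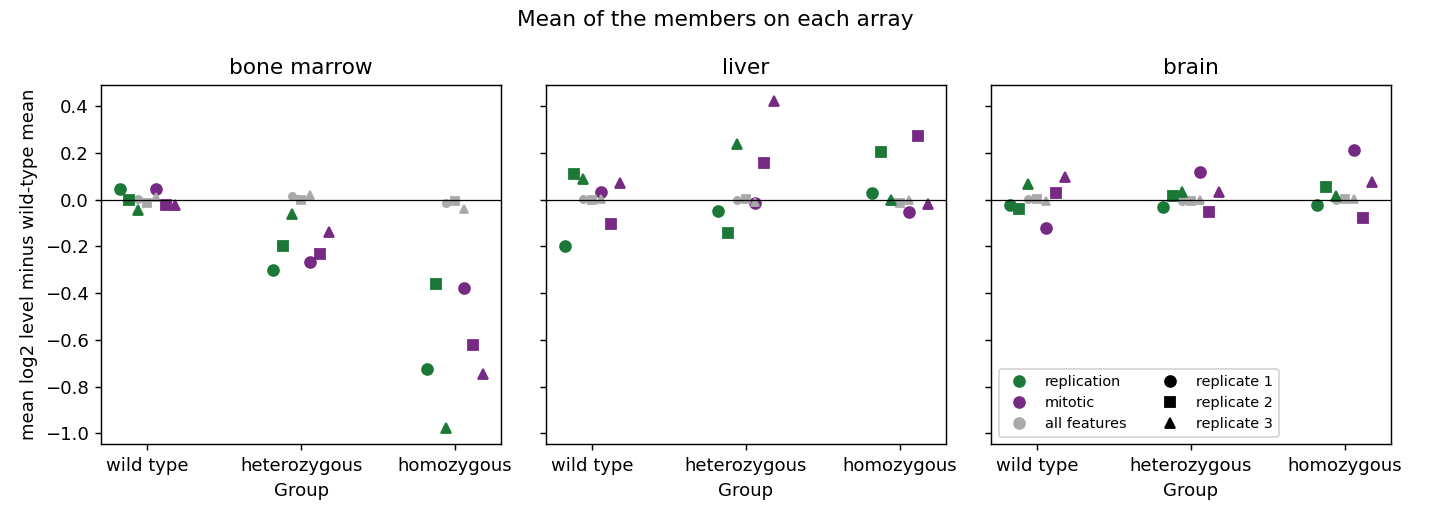
Mean log2 level of the kept replication genes (green), mitotic genes (purple) and all features (grey) on each array, minus the wild-type mean of the tissue, with marker shape giving the replicate. The homozygous marrow arrays lie lowest for both gene classes, and in liver and brain the 3 genotypes overlap.

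Leaving out single marrow arrays changed how many members passed the test, and 1 array decided most of it. Without homozygous replicate 2, 14 members passed, all lower, but 32.6% of all features then passed as well. The 14 were 11 replication genes (Mcm6, Mcm7, Cdc6, Cdt1, Rrm1, Rrm2, Gins1, Gins2, Cdc45, Rfc4 and Fen1) and 3 mitotic genes (Aurkb, Kif11 and Tpx2). All 29 stayed below 0, with medians of -0.74 for replication and -0.48 for mitotic genes. The count was 0 without any 1 wild-type array, without heterozygous replicate 2 or without homozygous replicate 1, and 1 without each of the others. With replicates 1 and 3, whose Mysm1 was not lower, both left out, homozygous replicate 2 alone stood against wild type. Of 29 members, 26 then lay below 0, against 49.5% of all features, with a median of -0.47, against 0.005. That lone array was assumed to vary like the other groups. Without a background correction the median was -0.41, and after scaling to a common median it was -2.10 with all features at -0.89, so its size beyond all features lay between -1.21 and -0.35 across the settings.

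Markers of other marrow cells moved in the same arrays. Of 14 B-lineage markers measured, 13 lay below 0 in homozygotes and 8 fell. Among these the B-cell receptor subunit Cd79b fell by 3.50 ± 0.32 on the log2 scale (adjusted p = 0.00158). Their summed linear level was 360.6 to 533.4 on homozygous arrays, 1315 to 2789 on wild-type and 1938 to 2820 on heterozygous arrays, and Cd79a, Vpreb2, Pax5, Rag1 and Dntt were among the markers detected on fewer than 3 marrow arrays. Cd79b was detected on 3 wild-type arrays and 1 homozygous array. Of 18 erythroid markers, 17 lay below 0 with 1 past the test, and their sums were 186144 to 203474 in homozygotes and 202822 to 207867 in wild type. Granulocyte markers lay above 0 for 17 of 19 with 0 past the test, with sums of 72317 to 100375 against 54798.5 to 64190.5. Megakaryocyte markers lay above 0 for 7 of 7, and 1 rose, with sums of 1801 to 4440 against 706.2 to 1282. T and NK cell markers lay below 0 for 5 of 7, 1 of which passed the test, yet their sums were 1218 to 4646 against 888.4 to 1143. Monocyte and macrophage markers lay below 0 for 6 of 9, with 1 past the test and sums of 4486 to 5021 against 3602 to 6120. Progenitor markers lay below 0 for 3 of 6 and stroma and endothelium markers for 4 of 11, with 0 past the test in both, and their sums were 242.9 to 453.3 against 303.2 to 313.8 and 1553 to 3134 against 1576 to 2292. Neuron and glia markers gave 0 of 6 past the test and sums of 434.1 to 1135 against 335.7 to 409.3. Without homozygous replicate 2, 32.6% of all features passed. In that fit 10 of 14 B-lineage markers were lower past the test and 1 higher, and 4 of 7 T and NK cell markers lower and 1 higher. Of erythroid markers 3 of 18 were lower, and of monocyte and macrophage markers 2 of 9. Higher were 5 of 7 megakaryocyte, 2 of 6 neuron and glia and 1 of 4 hepatocyte markers. Progenitor markers gave 2 higher and 2 lower of 6, stroma and endothelium markers 2 higher and 1 lower of 11, and granulocyte markers 0 of 19. There Cd79b lay at -3.70. With homozygous replicate 2 as the only homozygous array, medians were -2.40 for B-lineage and -1.19 for erythroid markers. They were 0.65 for granulocyte, 1.72 for megakaryocyte and 4.70 for hepatocyte markers, and Cd79b lay at -3.19. The part of these cell types in the differences of the replication and mitotic genes was not tested.

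In heterozygous marrow, which shared its BeadChip with wild type, 0 of 29 members passed the test and 0% of all features did. At an unadjusted p below 0.05, 2 members were lower, Cdk1 and Birc5, against 4.68% of all features. Below 0 lay 25 members, against 53% of features, and 5 members had groups apart and lower, against 13.5%: Rrm1, Gins2, Cdk1, Aurkb and Birc5. The median was -0.10, against -0.03 over all features. Birc5 read 9.69, 9.55 and 9.85 in heterozygotes, below its wild-type values of 10.12, 10.13 and 10.20, a difference of -0.45 ± 0.19 (adjusted p = 0.530). The homozygous arrays of Birc5, at 9.89, 9.55 and 9.57, overlapped the heterozygous arrays.

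Homozygous against heterozygous marrow again gave 0 members past the test, where 0.669% of all features passed. At an unadjusted p below 0.05, 11 members were lower, against 9.39% of features, and these were 9 replication and 2 mitotic genes. Groups lay apart and lower for 16 members, against 10.2%, and 27 members lay below 0, against 55.2%. The 2 at or above 0 were Mcm3 and Tyms. Medians were -0.44 for replication and -0.33 for mitotic genes, against -0.05 over all features. Cdc6 (-1.15 ± 0.23, adjusted p = 0.0577) and Cdt1 (-0.99 ± 0.21, adjusted p = 0.0611) had the smallest p. For Cdt1 the heterozygous arrays overlapped the wild-type arrays and all 3 homozygous arrays lay below both. Without homozygous replicate 2, 6 members passed, beside 14.5% of all features. Both homozygous comparisons share their homozygous arrays, so they are not separate evidence.

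Further genes of the same pathways were taken from lists outside the members. In homozygous against wild-type marrow, 30 of 33 other replication genes measured lay below 0, with a median of -0.44, and 1 fell: Timeless, a fork-protection factor, by 1.18 ± 0.22 (adjusted p = 0.0406). Of 39 other mitosis genes, 37 lay below 0, with a median of -0.55, and 0 passed, with 20 lower at an unadjusted p below 0.05. The 2 with the smallest p were the condensin subunit Smc2 (-1.04 ± 0.22, adjusted p = 0.0545) and the cohesin protector Sgo2a (-1.42 ± 0.31, adjusted p = 0.0557). Both were detected on 3 wild-type arrays and 1 homozygous array, so their homozygous levels lay largely at background. Without homozygous replicate 2, 11 of 32 replication and 6 of 38 mitosis genes of these lists were lower past the test. Timeless was among them, at -1.33. In that fit 32.6% of all features passed in either direction. With replicates 1 and 3 left out, the medians of the 2 lists were -0.31 and -0.73, and Timeless lay at -0.90. Of 22 cyclins, E2F factors and other cell cycle regulators, 18 lay below 0 with a median of -0.22 and 0 passed, with 4 lower and 1 higher at an unadjusted p below 0.05. Ccnd2, cyclin D2, was the 1 on the higher side, at 0.88 ± 0.23 (adjusted p = 0.0769), and the checkpoint kinase Chek2 lay at -0.72 ± 0.22 (adjusted p = 0.0900).

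Of 16 cell cycle inhibitors and p53 targets measured in marrow, 10 lay above 0, 1 rose and 1 fell. Cdkn1a, the p21 inhibitor of cyclin-dependent kinases and a p53 target, rose by 2.17 ± 0.20, from 5.45 ± 0.16 (SD, n = 3) in wild type and 5.38 ± 0.21 in heterozygotes to 7.62 ± 0.02 in homozygotes (adjusted p = 0.00158). Its spread over the 3 homozygous arrays was far below the difference. Btg1, an antiproliferative factor that is itself high in B cells, fell by 1.33 ± 0.21, from 9.27 ± 0.12 to 7.93 ± 0.08 (adjusted p = 0.0224). Both stayed past the test without homozygous replicate 2 (2.16 and -1.32) and with it as the only homozygous array (2.26 and -1.37).

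**Figure D3:**
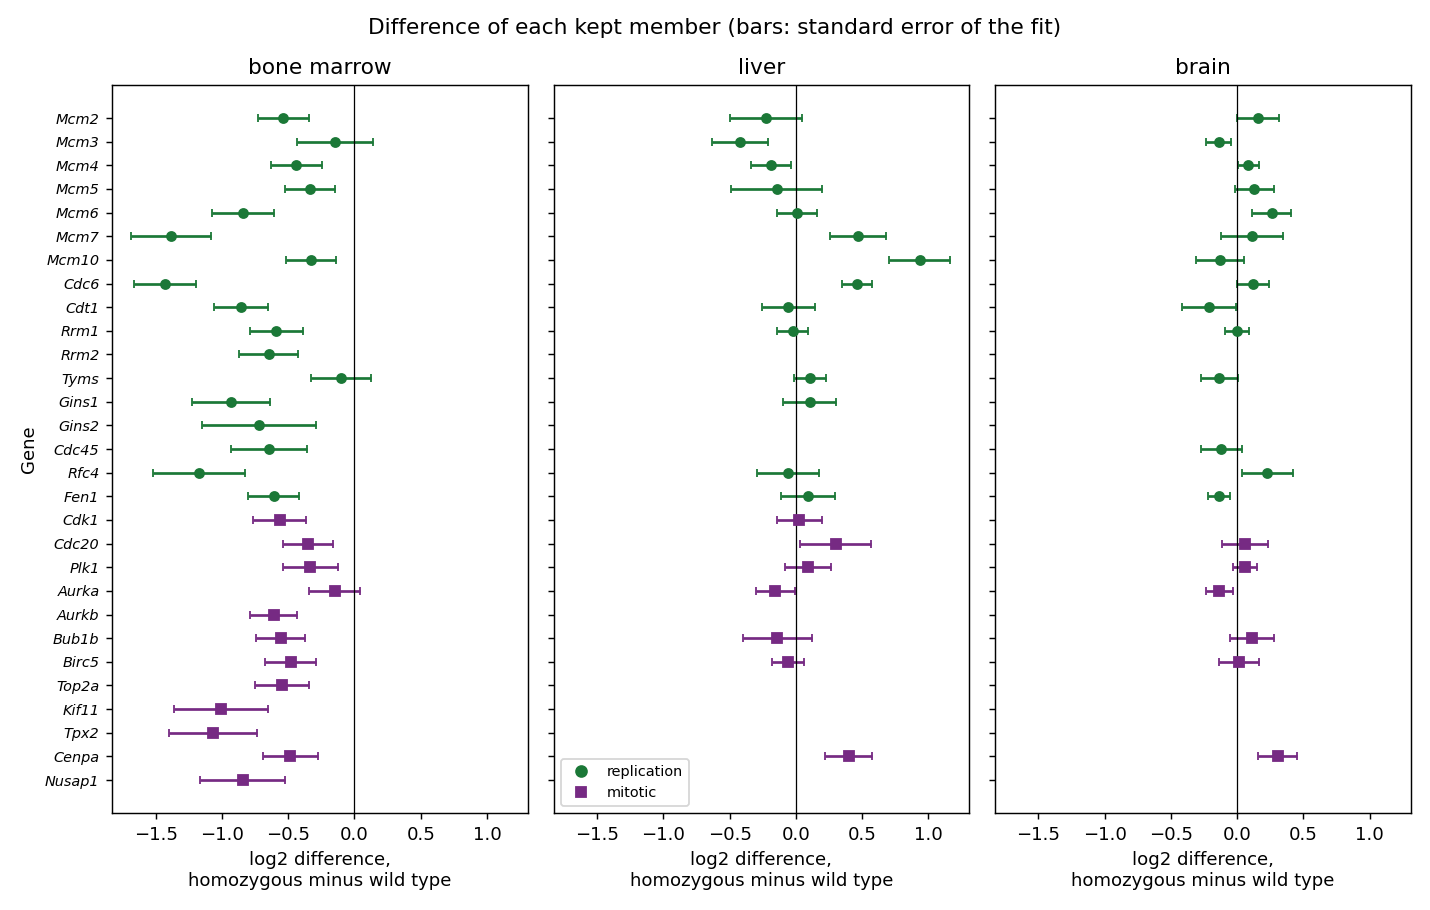
Log2 difference between homozygous and wild-type arrays for each member kept in bone marrow, liver or brain, with the standard error of the fit as bars, green circles for replication and purple squares for mitotic genes. All 29 marrow values lie left of 0, from -1.43 to -0.10, and a gap in liver or brain means the gene was not kept there.

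In liver, 0 of the 21 members passed the test in any of the 3 comparisons. In homozygous against wild-type liver 3 had an unadjusted p below 0.05, all on the higher side, while 1.42% of all features passed the test and 17.3% had such a p. With the replicate number as a block, 82 of the 11745 features passed in place of 167, and still 0 members. The members' median was 0.01, against 0.00 over all features, with 7 of 14 replication and 3 of 7 mitotic genes below 0. Homozygous livers sat on another BeadChip than the wild-type and heterozygous livers, so this comparison too cannot be told apart from BeadChip.

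Mcm10 stood out among the liver values. Its homozygous arrays read 10.68, 10.14 and 10.02, the heterozygous arrays 9.76, 9.58 and 9.54 and the wild-type arrays 8.83, 9.66 and 9.55. All 3 homozygous arrays lay above the 6 others, wild-type replicate 1 lay lowest, and the difference was 0.93 ± 0.23 (adjusted p = 0.0836). A second Mcm10 probe, detected on all 9 arrays, differed by 0.98 ± 0.27. Cdc6 read 5.21, 4.96 and 4.92 in homozygotes, 4.44, 4.64 and 4.62 in wild type and at most 4.53 in heterozygotes. It was detected on the 3 homozygous arrays and on none of the other 6, so homozygotes were at least 1.11-fold higher than wild type (adjusted p = 0.0806). Cdc6 passed the liver filter through those 3 arrays alone, so its direction and p support nothing by themselves. Cenpa read 8.37, 8.56 and 8.59 against 7.79, 7.98 and 8.55, a difference of 0.40 ± 0.18 with overlapping groups.

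Of the remaining liver members, Tyms differed by 0.11 ± 0.12, Gins1 by 0.10 ± 0.20 and Fen1 by 0.09 ± 0.20. Mcm7 read 5.33, 5.87 and 5.77 in homozygotes and 5.17, 5.39 and 5.01 in wild type, at 0.47 ± 0.21, and Mcm3 lay at -0.42 ± 0.21, both with overlapping groups. Aurka read 5.10, 5.41 and 5.14 against 5.44, 5.45 and 5.23, a difference of -0.15 ± 0.15. Of the other mitotic genes, Plk1 lay at 0.09 ± 0.17, Cdk1 at 0.03 ± 0.17, Bub1b at -0.14 ± 0.26 and Birc5 at -0.06 ± 0.12. Cdc20 was detected on 1 homozygous array and on none of the wild-type arrays, with readings of 4.67, 5.17 and 4.76 against 4.76, 4.48 and 4.46, and no fold is given. The brightest probes were those of Mcm10 at a mean of 9.75, Cenpa at 8.32 and Mcm4 at 7.55, and the dimmest those of Mcm3 at 4.90, Birc5 at 4.79 and Cdc6 at 4.70. Not followed in liver were Orc1, Pcna, Rrm2, Gins2, Cdc45, Prim1, Ccna2, Ccnb2, Ube2c, Cks2, Aurkb, Bub1, Top2a, Kif11, Kif20a, Tpx2 and Nusap1, whose probes were detected on 0 to 2 arrays.

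Between heterozygous and wild-type liver, which shared a BeadChip, 0 members and 0% of features passed, and 1 member, Cdc20, had an unadjusted p below 0.05, against 7.2% of features. It was undetected on the wild-type arrays and detected on 2 heterozygous arrays, at least 1.34-fold higher (adjusted p = 0.598). Cdc20 passed the liver filter through these 2 arrays and 1 homozygous array alone, so its direction and p support nothing by themselves. Between homozygous and heterozygous liver, 0.69% of features passed and 13.4% had an unadjusted p below 0.05, with 3 members among the latter. These were Cdc6 and Mcm10 on the higher side and Mcm4 on the lower side, at -0.39 ± 0.15 (adjusted p = 0.304). Cdc6 was again in the fit through its homozygous arrays alone. Medians were 0.03 and -0.04 in these comparisons.

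Among the other lists in liver, 0 of 27 replication genes, 0 of 15 mitosis genes and 0 of 17 regulators passed, with 0, 2 and 1 at an unadjusted p below 0.05. Named by their smallest p were Dbf4 (0.30 ± 0.14), Pole3 (0.21 ± 0.11), Anln (-0.33 ± 0.11), Cenpk (0.39 ± 0.16), Cdk2 (0.42 ± 0.14) and Tfdp1 (0.27 ± 0.13). Of 14 inhibitors and p53 targets, 2 fell: Cdkn1c, the p57 inhibitor, by 0.88 ± 0.15 (adjusted p = 0.0254), and Pmaip1, the proapoptotic p53 target Noxa, by 0.65 ± 0.13 (adjusted p = 0.0394). With the replicate number as a block the adjusted p was 0.0354 for Cdkn1c and 0.111 for Pmaip1, which ended the call of Pmaip1. Cdkn1a, which rose in marrow, was not among the liver genes past the test.

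Brain gave the narrowest differences. Of 20 members, 0 passed in any comparison, and 0 had an unadjusted p below 0.05 between homozygous and wild type, where 0.00693% of all features passed and 5.25% had such a p. Differences ran from -0.21 to 0.31, with medians of 0.04 for replication and 0.06 for mitotic genes. Mcm6 read 5.91, 6.32 and 6.34 in homozygotes and 5.98, 6.10 and 5.71 in wild type, a difference of 0.26 ± 0.15. Fen1 read 8.56, 8.35 and 8.45 against 8.65, 8.58 and 8.54, a difference of -0.14 ± 0.09. Mcm3 was not above background on any homozygous array, and wild type was at least 1.04-fold higher. It was detected on 3 wild-type arrays and 1 heterozygous array and could not have passed the brain filter without the wild-type arrays. The direction of Mcm3 thus supports nothing by itself. Cenpa read 8.01, 7.68 and 7.92 against 7.32, 7.48 and 7.88, a difference of 0.31 ± 0.15. Aurka read 5.42, 5.66 and 5.63 against 5.83, 5.59 and 5.69, a difference of -0.14 ± 0.10, and Bub1b lay at 0.11 ± 0.16. All 3 mitotic genes had overlapping groups. Wild-type brains sat on another BeadChip than the other genotypes.

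In heterozygous against wild-type brain 0% of features passed and 5.87% had an unadjusted p below 0.05, with 1 member among them: Mcm6 at 0.49 ± 0.15, whose arrays read 6.30, 6.38 and 6.58 (adjusted p = 0.702). Homozygous and heterozygous brains, which shared a BeadChip, differed in 0.00693% of features after adjustment and in 6.18% before it, and 0 members were in either. The medians of the members were -0.01 and 0.01. The brightest probes were those of Mcm4 at a mean of 8.55, Fen1 at 8.54 and Cenpa at 7.69, and the dimmest those of Mcm7 at 4.96, Mcm3 at 4.81 and Cdc6 at 4.81. Members not followed in brain were Orc1, Pcna, Rrm2, Gins1, Gins2, Prim1, Ccna2, Ccnb2, Cdk1, Ube2c, Cks2, Aurkb, Bub1, Top2a, Kif11, Kif20a, Tpx2 and Nusap1. In the other lists 0 of 31 replication genes, 0 of 22 mitosis genes, 0 of 21 regulators and 0 of 17 inhibitors and p53 targets passed, with 2, 1, 1 and 0 at an unadjusted p below 0.05. Tk1, thymidine kinase, lay at -0.53 ± 0.08 (adjusted p = 0.423), Dck at -0.28 ± 0.12, Stmn1 at -0.29 ± 0.12, Lmnb1 at 0.24 ± 0.11, E2f3 at 0.44 ± 0.11, Cdk2 at -0.17 ± 0.08, Mdm2 at 0.15 ± 0.08 and Bbc3 at -0.21 ± 0.11.

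Levels were next compared between tissues in wild type, after the 27 arrays had been normalised together, which puts marrow on another scale than above. The wild-type arrays of each tissue sat on a different BeadChip, so tissue cannot be told apart from BeadChip here. All 29 members tested were higher in bone marrow than in liver and than in brain, at a threshold that 46.8% and 56.6% of all 17374 features passed. A gene could enter this fit through its marrow arrays alone, so that count supports nothing by itself. Without the detection filter, 31 of 38 members were higher in marrow than in liver and 32 of 38 than in brain, where 27.9% and 34.2% of all features passed in either direction. In liver 10 of the 29 probes, and in brain 7, were undetected on all 3 wild-type arrays, so those differences are lower bounds. With the bounds in place the median was 4.34 on the log2 scale against liver and 5.06 against brain. Cenpa read 12.69 ± 0.01 (SD, n = 3) in marrow, 8.08 ± 0.36 in liver and 6.79 ± 0.29 in brain, and marrow exceeded liver 24.3-fold. Cdk1 was 47.6-fold and Mcm5 39.3-fold higher in marrow than in liver, and Nusap1 at least 89.7-fold. Such sizes depend on the processing. The members' fitted median against liver was 4.46, but 2.91 without background correction and 3.24 with the authors' processed values. Against brain it was 5.06, 3.29 and 3.67. Mcm10 was the closest, with 9.93 ± 0.03 in marrow, 9.19 ± 0.40 in liver and 4.88 ± 0.10 in brain, 1.67-fold between marrow and liver.

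Liver and brain, whose wild-type arrays also sat on different BeadChips, differed less. Of the 29 members 11 were higher in liver and 1 lower, against 49.6% of all features in either direction, and the median was 0.31. Mcm10 was higher in liver by 4.31 ± 0.18, Tyms by 2.06 ± 0.16, Gins1 by 1.31 ± 0.28, Cenpa by 1.29 ± 0.16 and Cdt1 by 1.05 ± 0.18. Fen1 was the member lower in liver, by 0.74 ± 0.16. Marker sums, normalised within a tissue over the markers kept there, were each highest in the tissue they stand for. Hepatocyte markers summed to 470391 to 495572 in liver (16 markers), at most 15569 in brain and 3946 in marrow, on homozygous replicate 2. Neuron and glia markers summed to 64033.9 to 71213.9 in brain (13 markers), at most 2867 in liver and 1135 in marrow. Erythroid markers summed to 186144 to 207867 in marrow (18 markers), at most 28114 in brain and 23747 in liver.

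**Figure D4:**
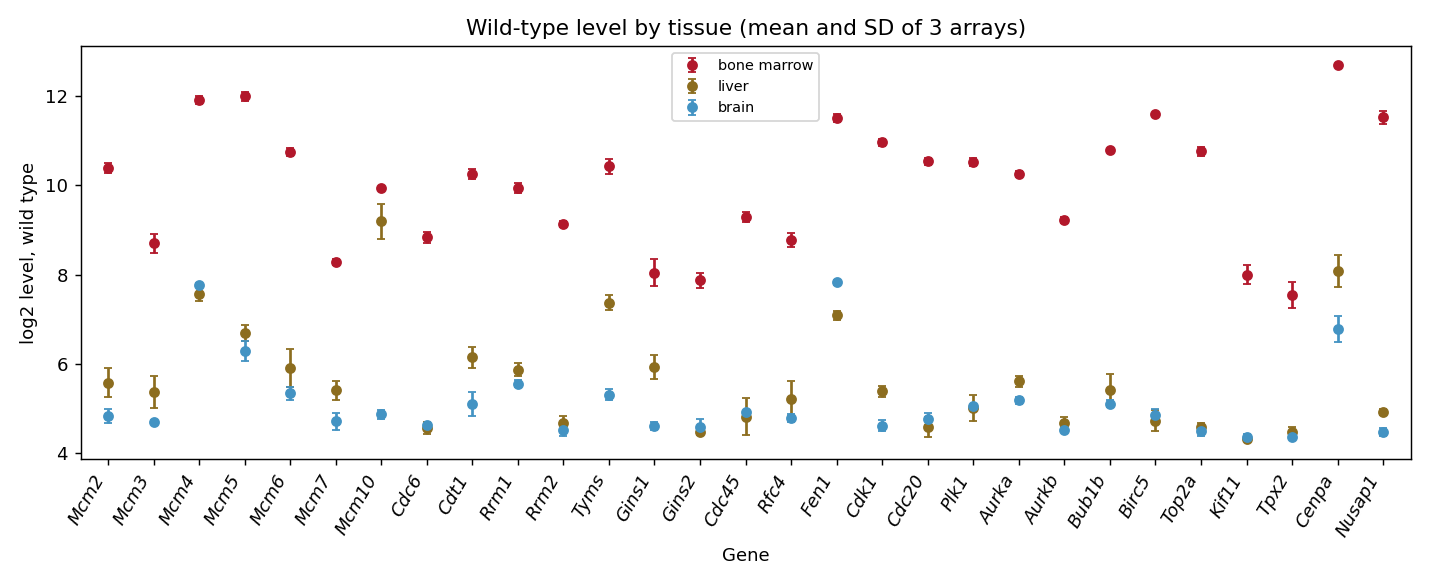
Wild-type log2 level of the 29 members in bone marrow (red), liver (brown) and brain (blue), each point the mean of 3 arrays with the SD as a bar, after normalisation of all 27 arrays together. Every marrow point lies above its liver and brain points, and Mcm10 is the member whose liver level comes closest to marrow.

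The same joint fit tested whether the homozygous difference itself was unequal between tissues. Between marrow and liver it was unequal for 9 of 29 members, all lower in marrow, where 15.7% of all features passed: Mcm10, Cdc6, Cdt1, Rrm1, Rrm2, Gins1, Aurkb, Birc5 and Top2a. Between marrow and brain 7 passed, all lower in marrow, where 11.4% of features passed: Mcm6, Cdc6, Rrm1, Gins1, Rfc4, Aurkb and Tpx2. Between liver and brain 0 members and 0.15% of features passed. Cdc6 had the smallest p among the members in both, at -2.41 ± 0.24 between marrow and liver (adjusted p = 2.04e-06) and -1.83 ± 0.24 between marrow and brain (adjusted p = 6.55e-05). Cdc6 was detected on 0 wild-type livers and 0 wild-type brains, and on 3 homozygous livers and 2 homozygous brains, so these are fitted values against background and not exact differences. Rrm2, Aurkb and Top2a had no detected array among the wild-type and homozygous livers, Birc5 had none among the wild-type livers, and Aurkb and Tpx2 had none among the wild-type and homozygous brains. For 4 of the 9 members and 4 of the 7, both groups of the other tissue had a detected array. For Gins1 in brain this was only 1 wild-type and 1 homozygous array. In the joint fit Mcm7 and Birc5 were read from another probe than in marrow.

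Those counts shifted with single arrays. For marrow against liver the 9 became 5 without marrow wild-type replicate 2, when 8.69% of all features passed. They became 16 without marrow homozygous replicate 2, when 36.5% passed. For marrow against brain the 7 became 1 without marrow wild-type replicate 1 or 2, brain wild-type replicate 1 or brain homozygous replicate 3. Those fits passed 6.11% to 7.86% of all features. The 7 became 2 without marrow homozygous replicate 3, brain wild-type replicate 2 or brain homozygous replicate 1 or 2, beside 6.58% to 8.97% of features. They became 3 without brain wild-type replicate 3, beside 7.5%, and 13 without marrow homozygous replicate 2, beside 32.4%. With marrow homozygous replicates 1 and 3 both left out, the counts were 6 for liver, beside 12.7% of all features, and 2 for brain, beside 10.6%. Over the 3 tissues together, a single homozygous effect passed for 0 of 29 members and 4 of 17374 features. The members' median was -0.22, against -0.03 over all features. At an unadjusted p below 0.05 lay 5 members, a count that supports nothing by itself because the share of all features was not counted. With BeadChip as a term in that fit, 0 features passed and 0 members had an unadjusted p below 0.05. The members' median was then -0.03, against -0.02 over all features.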

How the data were processed

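Transcript levels were measured in liver, bone marrow and brain on 27 Illumina arrays. The deposited table held an average signal intensity per probe and a detection p-value per probe and array, per the file headers, and a deposited value table of the series held intensities processed by the authors. The submitters' processing notes name BeadStudio and limma without settings. Of 45281 probes, 34885 had 1 gene symbol in the platform annotation, 18 several and 10378 none, and 34807 matched RefSeq of GRCm38.p6.

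Signals were normalised within a tissue in limma 3.58.1 (R 4.3.3) by neqc, which corrects background from the detection p-values, adds an offset of 16 and applies quantile normalisation, and were then used as log2 values. Probes detected at p below 0.05 on at least 3 of 9 arrays were kept, the brightest per gene stood for it, and the 3 genotypes were fitted with lmFit and eBayes. P-values were two-sided, adjusted by Benjamini-Hochberg over all features, with a threshold of 0.05. Errors after ± are standard errors of the fit unless given as SD. Tissues were compared in 1 fit over all 27 arrays. The number of arrays limits the precision. Arrays were taken as animals from the design text. If some were not, p-values would measure technical spread.

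The members and gene lists were chosen with earlier results of these data known. Array values were to be given for members past the threshold or, in liver and brain, the 3 of each class with the smallest p, and other lists were named by their smallest p. Array values of further marrow members were picked after their values were seen. "At least" folds set the brighter group against the dimmest detected signal of each array or the probe's own signal, whichever was higher.

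Replicate numbers recur across genotypes. The reported fits have no replicate block. Numbers were counted as pairing samples where all 3 pairs deviated together by a correlation over 0.1, which held for homozygous and wild-type liver (0.112, 0.105 and 0.232), and the blocked count is given there. The labels do not say what a number marks. Alternatives covered the filter, background, offset, normalisation, probe choice, array weights, genotypes in the fit, the replicate block, BeadChip and leaving out arrays. Leaving out marrow homozygous replicates 1 and 3 together was chosen after seeing the data. The analysis was tested on simulated data.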

Additional observations from a re-analysis of the deposited data

Results flagged for a closer look

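The joint fit over the 3 tissues tested whether the homozygous minus wild-type difference was unequal between tissues, and 16 such differences passed at an adjusted p below 0.05 (limma): 9 against liver, where 15.7% of all features passed, and 7 against brain, where 11.4% did. All are log2 values of the difference in bone marrow minus that in the other tissue, and none was given an explanation here. Against liver, the licensing genes lay at -2.41 for Cdc6, -1.17 for Mcm10 and -0.88 for Cdt1. Genes of the fork and nucleotide supply lay at -1.40 for Gins1, -0.99 for Rrm2 and -0.61 for Rrm1. The mitotic genes lay at -0.95 for Birc5, -0.85 for Top2a and -0.65 for Aurkb. Rrm2, Top2a and Aurkb were detected on none of the wild-type and homozygous livers, and Cdc6 and Birc5 on none of the wild-type livers, so these 5 values set marrow against background.

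Against brain, the licensing genes lay at -1.83 for Cdc6 and -1.08 for Mcm6, and the genes of the fork and nucleotide supply at -1.60 for Rfc4, -1.30 for Gins1 and -0.63 for Rrm1. The mitotic genes lay at -2.04 for Tpx2 and -0.61 for Aurkb. Tpx2 and Aurkb were detected on none of the wild-type and homozygous brains and Cdc6 on none of the wild-type brains, so these 3 values too were set against background. Gins1 was detected on 1 wild-type and 1 homozygous brain, so its value was set largely against background. The 9 became 5 without marrow wild-type replicate 2 (8.69% of all features passed) and 16 without marrow homozygous replicate 2 (36.5%). The 7 became 1 without marrow wild-type replicate 1 or 2, brain wild-type replicate 1 or brain homozygous replicate 3 (6.11% to 7.86%). They became 13 without marrow homozygous replicate 2 (32.4%). Cdc6, Rrm1, Gins1 and Aurkb were in both comparisons, which share the marrow arrays. In these data homozygous marrow sat on a BeadChip of its own, and the part of BeadChip in these differences cannot be told apart from genotype.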

How the results depend on the processing

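In bone marrow, homozygous against wild type, the 1 member past the test became 2 without the detection filter, without background correction, with an offset of 50 or after scaling to the same median, 21 with array weights (when 6589 of 11507 features passed), 0 with only the 2 genotypes in the fit and 0 with the replicate block. Leaving out single arrays gave 0 to 14. The median of -0.59 became -0.41 without background correction and -2.10 after median scaling. In the other marrow comparisons, heterozygous against wild type gave 2 members with array weights, when 1324 of 11507 features passed. Its median was -1.55 after median scaling. Homozygous against heterozygous gave 1 with the stricter filter, without background correction or with an offset of 50. It gave 7 with array weights, when 2151 of 11507 features passed. Leaving out single arrays gave it 0 to 6, the 6 beside 14.5% of features. Against heterozygotes, homozygous replicate 2 alone gave a median of -0.29, against -0.02 over all features.

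In liver, homozygous against wild type gave 1 member without background correction, with an offset of 50, after median scaling or with the authors' processed values (Mcm10), and 1 with the arrays normalised together or with array weights (Cdc6). Homozygous against heterozygous liver gave 1 under the last 2 settings. Cdc6 was kept in liver through its homozygous arrays alone, so its call there supports nothing by itself. Brain medians near 0 moved within that range: homozygous against wild type gave 0.0033 without the filter, 0.013 with the stricter filter, -0.025 after median scaling, 0.014 with the authors' processed values, -0.012 with the mean of a gene's probes and -0.014 to 0.102 when single arrays were left out. Heterozygous against wild type gave -0.072 after median scaling and -0.036 to 0.050 when single arrays were left out.

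Unequal differences between marrow and liver numbered 18 without background correction (17.1% of all features passed) and 17 with the authors' processed values (16.9%). They numbered 5 to 16 when single arrays were left out (8.69% to 36.5%). Between marrow and brain they numbered 3 without the filter (5.54% of all features passed) and 16 without background correction (12.4%). They numbered 14 with the authors' values (12.3%), 11 with array weights (34.7%) and 1 to 13 when single arrays were left out (6.11% to 32.4%). With marrow homozygous replicate 2 as the only homozygous marrow array, a setting chosen after seeing the data, the members' median was -0.45. Liver against brain gave 2 unequal differences with array weights (2.14%). The cause of these shifts was not tested.

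The replicate block changed no other count of members within a tissue. Homozygous against wild-type liver, the 1 comparison whose numbers paired by the stated rule, stayed at 0 members, while features past the test went from 167 to 82. The unequal differences became 10 for marrow against liver, beside 15.3% of all features, and 6 for marrow against brain, beside 11%. Of single-gene values, 536 of 580 in marrow, 397 of 403 in liver and 391 of 391 in brain stayed on the same side of the threshold. In marrow 7 values no longer passed it, and 37 marrow and 6 liver values newly passed it. Of values past the threshold in either fit, 0 changed direction. Direction was not compared where neither fit passed, and some such values changed sign. In marrow Mcm3 and Tyms each lay below 0 in 19 of 21 settings and Mcm7 in 20.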

Other observations

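Cdkn1a, the p21 inhibitor, also differed between homozygous and heterozygous marrow, where it rose by 2.24 (limma, adjusted p = 0.00155). Btg1 fell by 1.34 (adjusted p = 0.0226) in that comparison. The condensin subunit Smc2 had a mean log2 level of 5.63 ± 0.36 (SD, n = 3) in wild-type marrow, 4.62 ± 0.03 in heterozygotes and 4.58 ± 0.18 in homozygotes. It was detected on 3 wild-type, 0 heterozygous and 1 homozygous arrays, so the lower levels lay at or near background.

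Mcm10 was the member with the smallest gap between wild-type marrow and liver. Its probe was also the brightest among the liver members.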
